A study of Mus musculus with 6 samples.

Results

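The matrix metalloproteinases (MMPs) and their tissue inhibitors (TIMPs) were described as 10 genes, chosen by name: Mmp2, Mmp3, Mmp8, Mmp9, Mmp13, Mmp14 and Mmp19 with Timp1, Timp2 and Timp3. They were 10 of 55487 gene IDs in the count table, 7 of them proteases and 3 inhibitors. RNA came from whole tongue grafts of B16F10, a pigmented mouse melanoma line, grown in C57BL/6J mice. The labels gave the genotype WT for all 6 samples and no age. Separate animals per sample are not stated, and p-values here reflect the spread between these samples alone, which may be technical. In the 3 inhibition grafts, nociceptive nerves reaching the cervical lymph nodes had been labelled from the nodes with an AAV2/retro vector carrying Trpv1-hM4D(Gi)-mCherry, a designer receptor that silences neurons when deschloroclozapine is given. The design text described the other vector, Trpv1-mCherry, as carrying no such receptor, while the 3 control grafts were labelled as vehicle-treated, so the exact treatment of the controls is unclear. Vectors preceded the graft by 6 weeks, and the ligand was given 2 times per day for 12 days. Trpv1 in the vector names is the gene of a heat- and capsaicin-gated channel of nociceptors. The receptor itself was not measured here, so these data hold no check that it was expressed. Tissue other than tumour was removed before extraction according to the design text, yet markers of muscle and squamous epithelium were present in every library (given further on).

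MMPs are zinc-dependent proteases that cut collagens and other matrix proteins, and most are secreted as inactive precursors. TIMPs bind the active site and block it. In tumours and wounds these genes are transcribed by fibroblasts, macrophages, neutrophils, epithelium and tumour cells in different mixtures. The membrane protease Mmp14 is known to activate the Mmp2 precursor in a complex that also contains Timp2. Transcription of Mmp3 and Mmp13 is known to respond to inflammatory cytokines through AP-1, a dimer of Fos and Jun proteins, whereas Mmp8 and Mmp9 are stored in neutrophil granules.

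Mmp13 (ENSMUSG00000050578), Mmp3 (ENSMUSG00000043613) and Mmp8 (ENSMUSG00000005800) lie on the plus strand of chromosome 9 in GRCm38, from 7272514 to 7283331, 7445822 to 7455975 and 7558456 to 7568485. They belong to a cluster of 10 Mmp genes within 427.1 kb. Promoters were matched in the RefSeq table (GRCm38.p6) for 7 of the 10 genes. The 120 bases before the RefSeq start are shown for these 3 cluster genes and for Mmp14 and Timp1. Of the 10 genes, the 3 had the lowest log2 fold changes, though without passing the test given further on. Mmp14 and Timp1 are 2 genes with values nearer 0. The windows were picked with these values in view, and a link between letters and levels was not tested. Capitals mark the AP-1 letters TGANTCA and the TATA letters TATAA, searched on both strands. They are chr9:7445702-7445821 for Mmp3, chr9:7272394-7272513 for Mmp13, chr9:7558309-7558428 for Mmp8, chr14:54431478-54431597 for Mmp14 and chrX:20870046-20870165 for Timp1, all on the plus strand.
Mmp3: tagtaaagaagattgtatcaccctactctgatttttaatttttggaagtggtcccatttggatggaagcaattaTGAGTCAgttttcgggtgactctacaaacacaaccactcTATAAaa
Mmp13: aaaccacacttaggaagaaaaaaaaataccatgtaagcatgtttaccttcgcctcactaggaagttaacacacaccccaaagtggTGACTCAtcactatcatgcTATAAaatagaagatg
Mmp8: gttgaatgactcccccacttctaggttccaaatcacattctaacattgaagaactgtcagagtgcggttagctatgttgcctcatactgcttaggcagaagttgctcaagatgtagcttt
Mmp14: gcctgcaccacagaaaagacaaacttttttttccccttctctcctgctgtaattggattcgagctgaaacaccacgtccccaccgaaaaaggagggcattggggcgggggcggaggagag
Timp1: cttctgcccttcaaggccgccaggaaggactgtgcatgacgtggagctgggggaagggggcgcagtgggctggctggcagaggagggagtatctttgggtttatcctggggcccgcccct

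In the 250 bases before the start, an AP-1 match was found in Mmp3 and in Mmp13, beginning 46 and 35 bases before it, and in neither Mmp8, Mmp14 nor the 3 Timp genes. Of 32851 promoters in the table, 6.75% held these letters in a window of that length. The TATA letters were found in Mmp3, Mmp13 and Timp3 and in 22.8% of all promoters. The letters AGGAAG, known as a PEA3 site of Ets factors, were found in Mmp3, Mmp13, Mmp8, Mmp14, Timp1 and Timp3 but not in Timp2, against 29.5% of all promoters. GC content of the window ran from 37.6% in Mmp3, 40.4% in Mmp13 and 44.8% in Mmp8 to 68% in Timp2. These matches describe letters only.

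The remaining genes were spread over the genome (GRCm38, all annotated as protein-coding). Mmp2 (ENSMUSG00000031740) lies on chromosome 8 from 92827291 to 92853420, Mmp9 (ENSMUSG00000017737) on chromosome 2 from 164940780 to 164955850, and Mmp14 (ENSMUSG00000000957) on chromosome 14 from 54431612 to 54445364. Timp1 (ENSMUSG00000001131) lies on chromosome X from 20870166 to 20874735 and Timp2 (ENSMUSG00000017466) on chromosome 11 from 118301069 to 118355740, where the smaller gene Cep295nl overlaps it on the same strand. Mmp19 (ENSMUSG00000025355, chromosome 10, 128790910 to 128800824) shares 1001 exon bases with genes on the opposite strand. Timp3 (ENSMUSG00000020044, chromosome 10, 86300372 to 86349506) shares 1733 with Syn3. The strand setting of the counting is not given in the sources used here, so the values of Mmp19 and Timp3 are uncertain to that extent.

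Library totals ran from 14477277 to 20972494 counts, and all 10 genes passed the filter on low counts. Levels between genes were compared per exon length, as reads per kilobase of exon scaled to library size (RPKM). In the controls Timp2 stood at 65.2 ± 5.33 RPKM (SD, n = 3 here and for all group means), Timp1 at 61.8 ± 14.3 and Mmp14 at 46.5 ± 2.62. Below them came Mmp3 at 31.7 ± 12.1, Mmp13 at 15.5 ± 2.77 and Mmp2 at 10.1 ± 2.31 RPKM. Timp3 stood at 3.95 ± 0.730, Mmp19 at 1.95 ± 0.493, Mmp9 at 1.24 ± 0.137 and Mmp8 at 0.819 ± 0.714 RPKM. Neighbours in this order had overlapping libraries for Timp2 and Timp1, Timp1 and Mmp14, Mmp14 and Mmp3, and Mmp9 and Mmp8, and did not overlap otherwise. Timp2, Timp1 and the membrane protease Mmp14 thus had higher control means than every secreted protease, although Mmp14 and Mmp3 overlapped.

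In the inhibition grafts the order was the same except at its middle. Mmp2, at 14.2 ± 1.65 RPKM, stood above Mmp13 and level with Mmp3 at 14.2 ± 7.68, with overlapping libraries, and Mmp13 followed at 7.94 ± 4.91, overlapping Mmp3. Timp2 (70.6 ± 5.17), Timp1 (68.0 ± 8.51) and Mmp14 (46.0 ± 2.40 RPKM) again had the 3 highest means. The order of these 3 depends on the length used. With the longest transcript in place of all exons, Mmp14 stood highest, at 85.6 RPKM in the controls and 84.7 under inhibition, above Timp2 (68.5 and 74.2) and Timp1 (62.2 and 68.4), and Timp3 stood at 6.82 and 7.68. Spread differed widely between genes. The coefficient of variation over the 3 inhibition libraries was 5.22% for Mmp14 and 7.32% for Timp2, but 54.3% for Mmp3, 61.8% for Mmp13 and 87.5% for Mmp8.

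**Figure D1:**
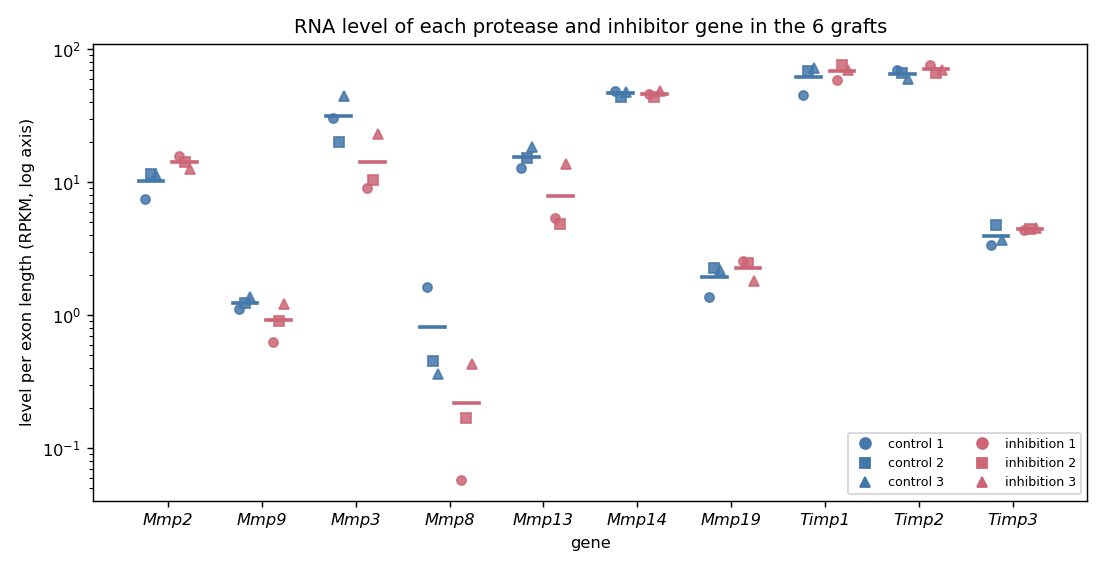
Level of each gene in RPKM (y axis, logarithmic) by gene (x axis), with 1 symbol per library and a bar at each group mean, controls in blue and inhibition in red. Mmp14 and Timp2 form tight groups at the top, while the inhibition libraries of Mmp3 and Mmp13 spread from 9.10 to 23.0 and from 4.85 to 13.6 RPKM.

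The comparison asked how the graft differs when the nociceptive nerves of the nodes are inhibited. Each log2 fold change sets inhibition against control, positive where inhibition is higher. Over all 15666 genes tested, edgeR's quasi-likelihood test called 6 (0.0383%; 0.0319% higher and 0.00638% lower) at a Benjamini-Hochberg adjusted p under 0.05, and 0 of the 10 members were among them. DESeq2 also called 0 members, against 3.67% of its tested genes (2.37% higher and 1.3% lower), and limma-voom called 0 of all genes. At an unadjusted edgeR p under 0.05, 1 member was higher and 0 lower, against 8.36% and 7% of all genes. Groups did not overlap in 1 member (Mmp2, higher), against 21.3% of all genes tested and 10.2% in that direction. In edgeR a share of 1 in 10 is near these backgrounds. At the same unadjusted threshold, DESeq2 and limma-voom each had 1 member higher and 2 lower. Over all genes the counts were 1264 higher and 1020 lower with DESeq2, and 1366 and 1064 with limma-voom. The members had 5 positive and 5 negative log2 fold changes with a median of 0.05, against 0.0049 over all genes, of which 51% were positive. The 7 Mmp genes ran from -1.80 to 0.48, 2 positive and 5 negative, with a median of -0.43. The 3 Timp genes ran from 0.12 to 0.17 with a median of 0.14. These lay within the interquartile range of all genes tested (-0.13 to 0.19).

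**Figure D2:**
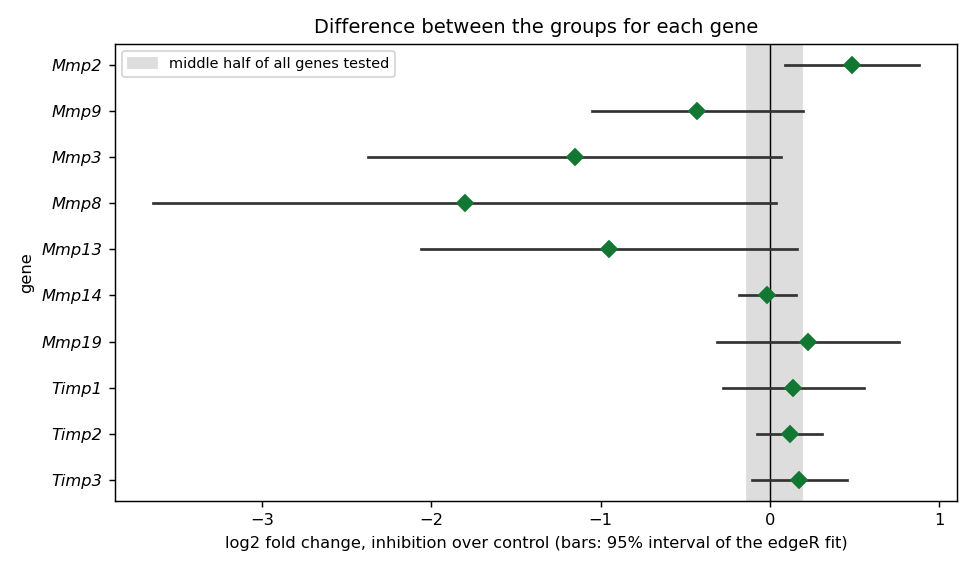
Log2 fold change of each gene, inhibition over control (x axis), with its 95% interval from the edgeR fit, and in grey the interquartile range of all genes tested (-0.13 to 0.19). Intervals of Mmp3, Mmp8 and Mmp13 are wide and reach just past 0, that of Mmp2 lies above 0 before adjustment, and those of Mmp14 and Timp2 are narrow.

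Mmp3, stromelysin-1, which cuts many matrix proteins and activates other MMP precursors, was lower in the mean of the inhibition grafts without passing the test. Its levels were 55.1, 36.2 and 79.7 CPM (counts scaled to library size with TMM factors) in controls 1 to 3 and 16.4, 18.7 and 41.4 CPM in inhibition 1 to 3. Inhibition 1 and 2 lay below every control, while inhibition 3 lay between control 2 and control 1. The means were 57.0 ± 21.8 and 25.5 ± 13.8 CPM, a log2 fold change of -1.15 (standard error 0.48, 95% interval -2.37 to 0.06, adjusted p = 0.342). Only 0.466% of all genes tested had a log2 fold change as low, while its edgeR p ranked 2708 among the 15666. Without inhibition 3 the log2 fold change was -1.72 (adjusted p = 0.126). It was weaker without control 3 (-0.84), inhibition 1 (-0.94) or inhibition 2 (-0.98), with edgeR adjusted p = 0.493, 0.637 and 0.574.

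Mmp13, the collagenase that cuts fibrillar collagen in rodents, had nearly the same profile. It stood at 34.2, 40.7 and 49.0 CPM in the controls and at 14.4, 12.97 and 36.4 CPM in the inhibition grafts. Again inhibition 1 and 2 were below all controls and inhibition 3 was just above control 1. The means were 41.3 ± 7.40 and 21.2 ± 13.1 CPM, with a log2 fold change of -0.95 (standard error 0.44, interval -2.06 to 0.16, adjusted p = 0.381). Single libraries moved this value. Without inhibition 3 the log2 fold change was -1.61 (standard error 0.17) and edgeR called Mmp13 (adjusted p = 0.00613), in a fit that called 217 of 15890 genes tested. It was weaker without control 3 (-0.81), inhibition 1 (-0.75) or inhibition 2 (-0.70), with edgeR adjusted p = 0.523, 0.667 and 0.588. Of the 45 possible pairs of members, Mmp3 and Mmp13 had the most similar profiles over the 6 libraries (root mean square difference 0.361 between profiles scaled to SD 1).

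Mmp8, the collagenase of neutrophil granules, was close to the limit of detection. The libraries held 66, 17 and 18 reads in the controls and 2, 8 and 22 in the inhibition grafts, or 3.98, 1.11 and 0.871 against 0.140, 0.410 and 1.05 CPM. Control 1 stood far above the others and inhibition 3 lay above control 3, so the groups overlapped. The 2 reads of inhibition 1 allow 0.0170 to 0.506 CPM and the 66 of control 1 allow 3.08 to 5.07 CPM (exact Poisson 95% intervals, which cover counting error only). The log2 fold change was -1.80 (standard error 0.79, interval -3.64 to 0.03, adjusted p = 0.331), and it was -0.81 without control 1 (adjusted p = 0.728) but -2.75 without inhibition 3 (adjusted p = 0.182). Without the filter on low counts edgeR called Mmp8 (adjusted p = 0.00306), among 1187 of 28841 genes tested.

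Mmp2 and Mmp9 are the gelatinases, which cut denatured collagen and basement membrane collagen, and they lay on opposite sides of 0. Mmp2 stood at 25.2, 38.9 and 38.4 CPM in the controls and at 53.3, 48.0 and 42.2 CPM in the inhibition grafts. Every inhibition library was above every control, and control 1 was the lowest. The log2 fold change was 0.48 (standard error 0.17, interval 0.09 to 0.88, unadjusted p = 0.0231, adjusted p = 0.256), a fold of 1.40, and it was 0.30 without control 1 (adjusted p = 0.393). Without the filter on low counts edgeR called it (adjusted p = 0.000932), among 1187 of 28841 genes tested. Adding the skeletal muscle level as a covariate turned the direction, to -0.057 (adjusted p = 0.9995); that level itself moves with the group.

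Mmp9 was a low gene here, at 3.92, 4.36 and 4.89 CPM in the controls and 2.24, 3.18 and 4.29 CPM in the inhibition grafts. Inhibition 1 and 2 were below all controls and inhibition 3 was among them. Its log2 fold change was -0.43 (standard error 0.28, interval -1.05 to 0.19, adjusted p = 0.473), and it was -0.70 without inhibition 3 (adjusted p = 0.265) but -0.24 without inhibition 1 (adjusted p = 0.792). The 2 genes tied to neutrophil granules thus both had negative values, Mmp8 with the larger one and the larger error.

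Mmp14, the membrane-type protease that works at the cell surface, stood at 289, 259 and 283 CPM in the controls and 276, 259 and 287 CPM in the inhibition grafts. These ranges almost coincide. The log2 fold change was -0.01 (standard error 0.07) with a 95% interval of -0.18 to 0.15, so the interval leaves room only for small differences in either direction. With 1 library left out it ran from -0.077 (without control 2) to 0.016 (without inhibition 2). Mmp19, a secreted protease found in several stromal and myeloid cells, had 4.89, 8.003 and 7.79 CPM in the controls and 9.11, 8.76 and 6.34 CPM in the inhibition grafts. Control 1 was the lowest library and inhibition 3 the lowest of its group (log2 fold change 0.22, interval -0.31 to 0.76, adjusted p = 0.680). Single libraries moved this value, to 0.019 without control 1, 0.12 without inhibition 1, 0.15 without inhibition 2 and 0.36 without inhibition 3.

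The 3 inhibitors had small positive values and overlapping groups. Timp1, an inducible inhibitor of secreted MMPs, stood at 40.4, 60.6 and 63.7 CPM in the controls and 52.2, 67.1 and 61.9 CPM under inhibition, with control 1 lowest (log2 fold change 0.14, interval -0.28 to 0.56, adjusted p = 0.739). Timp2, which binds Mmp14 and the Mmp2 precursor, stood at 274, 256 and 232 against 297, 258 and 271 CPM (0.12, interval -0.08 to 0.31, adjusted p = 0.535). Timp3, the inhibitor that stays bound to the matrix, stood at 27.6, 38.9 and 30.0 against 35.8, 36.0 and 36.9 CPM (0.17, interval -0.11 to 0.45, adjusted p = 0.519). The upper interval bounds of Timp2 and Timp3 lie below a log2 fold change of 0.46. Leaving out single libraries moved all 3 values. Timp1 stood at -0.048 without control 1, 0.26 without control 3, 0.22 without inhibition 1 and 0.048 without inhibition 2. Timp2 stood at 0.049 without control 3 and at 0.048 without inhibition 1. Timp3 stood at 0.070 without control 1 and at 0.31 without control 2 (unadjusted p = 0.0131, adjusted p = 0.161).

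Summed per exon length, the 7 proteases made 103, 94.4 and 125 RPKM in the controls and 79.9, 76.4 and 101 RPKM in the inhibition grafts. The 3 inhibitors made 119, 139 and 135 against 139, 146 and 144 RPKM. The ratio of protease to inhibitor RNA was 0.868, 0.680 and 0.929 in the controls and 0.573, 0.523 and 0.701 in the inhibition grafts. Inhibition 3 lay just above control 2, so the ranges touched, with means of 0.826 ± 0.130 and 0.599 ± 0.0918. A ratio of RNA says nothing of enzyme activity, and it moved to 1.08 and 0.838 when the length of the longest transcript replaced that of all exons.

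The make-up of the protease RNA also differed between the groups, in shares that were not tested and that depend on the exon length used. Mmp14 and Mmp2 together, the partners at the cell surface, made 54.0%, 58.3% and 47.0% of the protease RPKM in the controls and 77.8%, 75.5% and 60.3% in the inhibition grafts. All 3 inhibition libraries lay above the controls, with inhibition 3 the nearest. Of all single genes tested, 10.2% had groups that did not overlap in that direction. Mmp14 was level in CPM, so this share followed the lower Mmp3 and Mmp13 and the higher Mmp2. Among the inhibitors the shares hardly differed, Timp1 making 46.8% ± 7.75 and 47.5% ± 4.86 and Timp2 50.2% ± 7.80 and 49.4% ± 4.81.

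**Figure D3:**
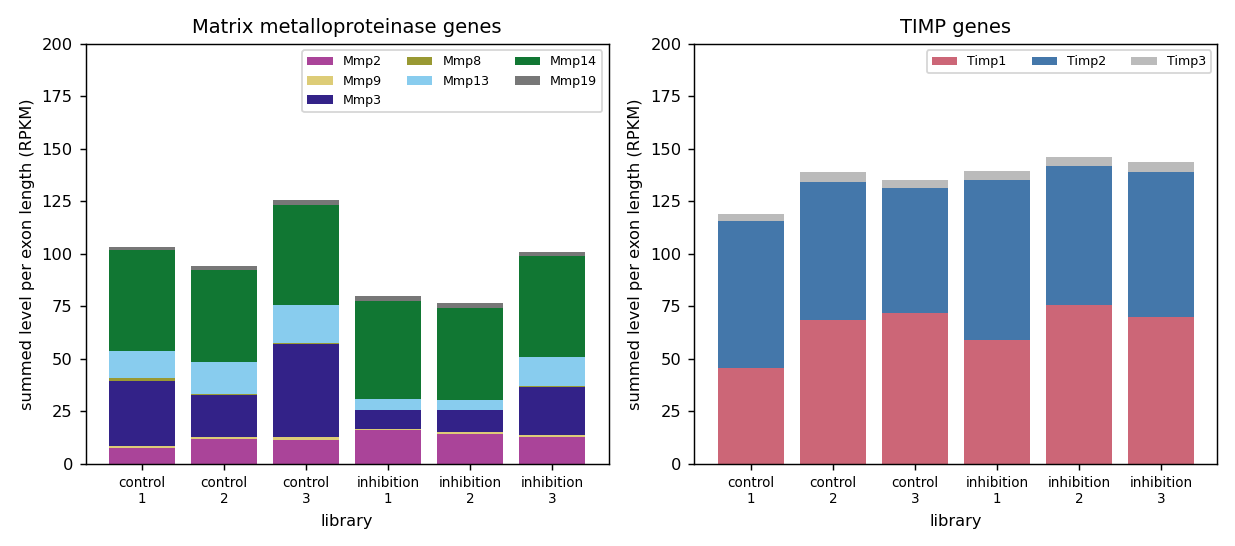
Stacked levels per exon length (RPKM, y axis from 0) of the 7 protease genes (left) and the 3 inhibitor genes (right) in each of the 6 libraries (x axis). The Mmp3 and Mmp13 blocks are smallest in inhibition 1 and 2, the Mmp14 block keeps its height, and the inhibitor bars lie between 119 and 146 RPKM.

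Markers of several cell types differed between the same grafts, and in bulk tissue fewer cells of a type and less RNA per cell cannot be told apart. Of 14 neutrophil markers 8 were tested, all 8 with negative values and groups that did not overlap (11% of all genes did so in that direction), and a median log2 fold change of -2.51. Their summed level was 39.2 to 98.5 CPM in the controls and 10.7 to 31.2 CPM under inhibition. Trem1 stood at -2.26 and Fpr1 at -2.97 on the log2 scale (adjusted p = 0.122 and 0.157), while Ly6g reached at most 1 count and Mpo at most 2 in any library. All 10 fibroblast markers were positive with a median of 0.65 and sums of 798 to 1235 against 1475 to 1950 CPM. Their part in the values of Mmp2, Mmp3, Mmp8, Mmp9 and Mmp13 was not tested.

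Skeletal muscle markers summed to 761 to 1713 CPM in the controls and 2116 to 3627 CPM under inhibition, all 11 positive (median 1.28), with Ttn at 1.45 and Actn2 at 1.36 (adjusted p = 0.162 and 0.166). With the muscle level as a covariate, Mmp3 stood at -0.026, Mmp13 at -0.46 and Mmp9 at -0.16, and the sign turned for Mmp8 (0.44), Mmp14 (0.14), Mmp19 (-0.48), Timp1 (-0.15) and Timp3 (-0.16) as for Mmp2, all with an adjusted p of 0.9995. Squamous epithelium markers summed to 1135 to 2627 and 1467 to 4698 CPM (8 of 9 positive, median 1.08), with Flg at 3.21 and Lor at 1.72 (adjusted p = 0.0788 and 0.239). Flg was near the limit of detection in the controls, at 0.181, 0.260 and 0.290 CPM, and Krt14 was negative at -0.23. Monocyte and macrophage markers summed to 220 to 404 and 387 to 461 CPM (10 of 11 positive, median 0.62), with Csf1r at 0.62 and Ccr2 at 1.63 (adjusted p = 0.186 and 0.220). Endothelial markers summed to 154 to 269 and 299 to 340 CPM (8 of 8 positive, median 0.48), with Tie1 at 0.34 and Kdr at 0.76 (adjusted p = 0.242 and 0.261). Mast cell markers overlapped, at 12.3 to 15.03 and 7.77 to 20.9 CPM, with Hdc at -2.20 and Mcpt4 at 2.13 (adjusted p = 0.0666 and 0.266), and the 6 T cell markers summed to at most 2.67 CPM. Melanoma markers were abundant in every library at 15570 to 23092 and 22164 to 26818 CPM (6 of 7 positive, median 0.10, Pmel 0.27 and Tyrp1 0.37).

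Within the inhibition group, inhibition 3 was the library nearest to the controls for Mmp2, Mmp3, Mmp8, Mmp9, Mmp13 and Mmp19. Inhibition 3 was also the nearest for the neutrophil, fibroblast and muscle lists. In log2 units relative to the controls it stood at -0.46 for Mmp3, -0.18 for Mmp13 and 0.31 for Mmp2, against -1.80, -1.52 and 0.64 in inhibition 1 and -1.61, -1.67 and 0.49 in inhibition 2. The neutrophil list stood at -1.19 in inhibition 3 and at -2.84 and -2.86 in inhibition 1 and 2. The fibroblast list stood at 0.44, against 0.85 and 0.75, and Mmp19 at -0.12, against 0.40 and 0.35. Inhibition 3 was not the nearest for Mmp14, Timp1, Timp2 or Timp3. Nor was it for the endothelial list (0.56, against 0.48 in inhibition 2), the monocyte and macrophage list (0.60, against 0.56 in inhibition 1) or the collagen and basement membrane list (0.37, against 0.33 in inhibition 2). Among the controls, control 1 was lowest for the fibroblast (-0.35), muscle (-0.61), endothelial (-0.50) and macrophage (-0.41) lists and highest for the neutrophil list (0.59).

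**Figure D4:**
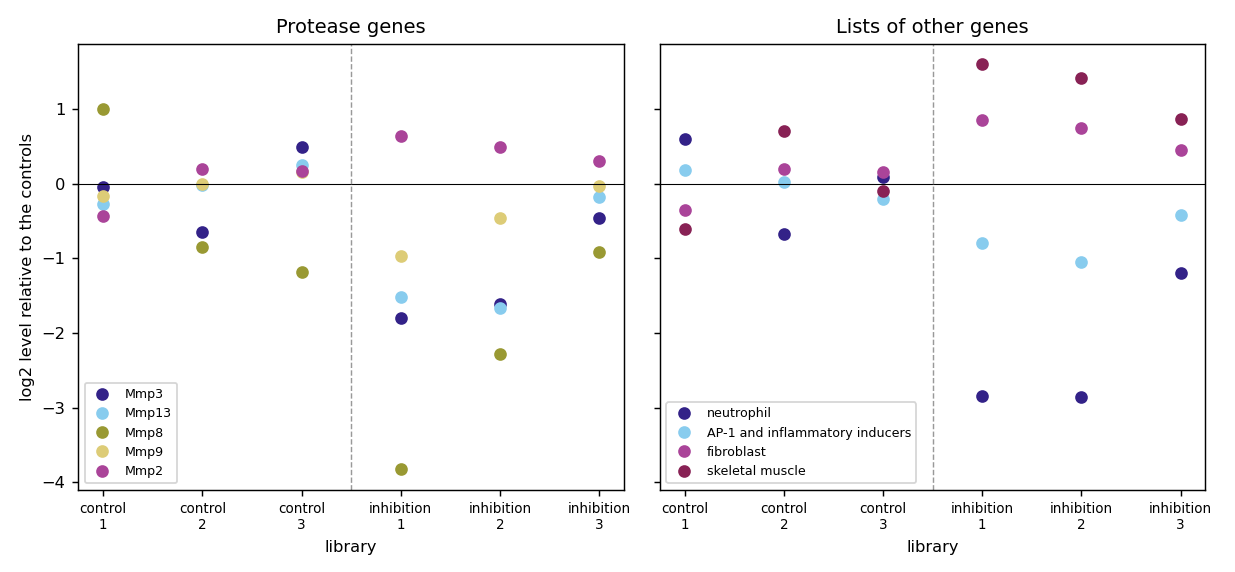
Log2 level relative to the controls (y axis) in each library (x axis) for 5 protease genes (left) and for the mean of 4 gene lists (right); the dashed line divides the groups. Mmp3 and Mmp13 are lowest in inhibition 1 and 2, as are the neutrophil and inducer lists, while Mmp2 and the fibroblast list are highest there.

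Genes that are known to induce MMPs, namely AP-1 subunits, Ets factors and inflammatory cytokines, were mostly negative. Of 15 listed, 14 were tested, 13 with negative log2 fold changes and a median of -0.44. After adjustment edgeR called 0, though 5 had an unadjusted p under 0.05 with lower levels (7% of all genes). DESeq2 gave 2 lower calls (1.3% of all genes). The 5 were the cytokines Il1b, Osm, Il1a and Il6 and the AP-1 subunit Junb (-0.36, edgeR adjusted p = 0.259). The AP-1 genes Jun (-0.02), Jund (-0.07) and Fosl2 (-0.20) and the Ets genes Ets1 (-0.11) and Ets2 (0.14) lay nearer 0. Fos (-0.46), Fosb (-1.15) and Etv4 (-0.87) were further below 0, with overlapping groups. The cytokine Tnf stood at -0.43 (edgeR adjusted p = 0.689), also with overlapping groups and with at most 20 counts in any library. Il1b, the cytokine interleukin-1 beta, stood at 33.9, 9.89 and 20.96 CPM in the controls and 2.45, 1.79 and 4.43 CPM in the inhibition grafts, a log2 fold change of -2.88 (adjusted p = 0.166). Osm, the cytokine oncostatin M, stood at -1.65 on the log2 scale and Il1a at -1.15 (adjusted p = 0.186 and 0.223). Both had groups that did not overlap (11% of all genes did so in that direction). Both were low genes, with at most 49 counts for Osm and 33 for Il1a in any library.

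Matrix genes that MMPs cut lay on the positive side with Mmp2. Of 14 collagen and basement membrane genes 13 were positive, with a median of 0.36; edgeR called 0, though 7 had an unadjusted p under 0.05 with higher levels (8.36% of all genes), and 5 higher calls came from DESeq2 (2.37% of all genes). Col5a1, Col1a2 and Col1a1, subunits of fibrillar collagens, stood at 0.64, 0.70 and 0.60 on the log2 scale (adjusted p = 0.0766, 0.162 and 0.166). Col1a1, Col1a2 and Col3a1 were also among the fibroblast markers above, so the lists share genes. Col1a1 stood at 128, 156 and 173 CPM in the controls and 264, 228 and 200 CPM under inhibition, without overlap (10.2% of all genes did so in that direction).

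The other MMP genes were mostly scarce. Of 16 listed, 7 were tested, 4 positive and 3 negative with a median of 0.22, and edgeR and DESeq2 each called 0 (0 at an unadjusted edgeR p under 0.05). Mmp23 had a log2 fold change of 0.79, the membrane-type gene Mmp15 0.43 and the stromelysin Mmp10 -0.38 (adjusted p = 0.342, 0.372 and 0.488). In the chromosome 9 cluster, 5 of 10 genes were tested, and the other 5 had at most 9 counts in any library. Mmp12, the macrophage elastase between Mmp13 and Mmp3, had 0.24 (adjusted p = 0.627), opposite in sign to both of these neighbours.

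Among 13 further inhibitors and regulators of MMPs, 10 were tested, 5 on each side of 0 with a median of 0.01; edgeR and DESeq2 called 0 (before adjustment edgeR's p was under 0.05 for 3 higher and 2 lower, against 8.36% and 7% of all genes). Reck, a membrane-anchored MMP inhibitor, was level at -0.04 (adjusted p = 0.865), and Timp4 did not pass the filter, with at most 15 counts. Lcn2, which binds Mmp9 in neutrophils, stood at 25.3, 7.22 and 14.9 CPM in the controls and 1.19, 1.69 and 6.48 CPM in the inhibition grafts, a log2 fold change of -2.30 (adjusted p = 0.273). Lrp1, the receptor that clears several MMPs, had 0.26 and Pcolce2, an enhancer of collagen processing, 0.86 (adjusted p = 0.212 and 0.281).

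Plasminogen activation feeds into MMP activation, and 9 of its 11 genes were tested, 4 positive and 5 negative (median -0.09). For this list edgeR called 0. Before adjustment, 3 higher and 1 lower had p under 0.05, against 8.36% and 7% of all genes. DESeq2 gave 1 higher call, against 2.37% of all genes. Serpine2, a protease inhibitor, Plau, urokinase, and Plat, tissue plasminogen activator, stood at 0.75, 0.60 and 0.61 on the log2 scale (adjusted p = 0.196, 0.237 and 0.297). The 14 ADAM and ADAMTS proteases, all tested, had 6 positive and 8 negative values with a median of -0.08. Among them edgeR and DESeq2 called 0. Before adjustment edgeR's p was under 0.05 for 2 higher and 2 lower, against the same 8.36% and 7%. Adam19 and Adam15 had 0.39 and 0.24 and Adam12 -0.68 (adjusted p = 0.223, 0.244 and 0.281). Of 13 cathepsins and other matrix proteases 10 were tested, 8 positive with a median of 0.12. Here too edgeR and DESeq2 called 0. Before adjustment edgeR's p was under 0.05 for 2 higher and 0 lower, against 8.36% and 7% of all genes. The fibroblast protease Fap had 0.66, Tll1 0.88 and Htra1 0.88 (adjusted p = 0.242, 0.273 and 0.352).

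Profiles over the 6 libraries were compared by the root mean square difference after scaling each to mean 0 and SD 1, among 12634 candidate genes. Nearest to Mmp2 were Pxdn, a matrix peroxidase (0.0307), Cdk16 (0.0676) and Col5a2, a fibrillar collagen subunit (0.0736). Nearest to Mmp13 were Ptcd1 (0.0598), Arpin (0.127) and Dync1li1 (0.142), and to Mmp3 Pgam5 (0.0997), Eif4b (0.123) and Nfu1 (0.135). For Mmp8 they were Kcnk2 (0.0488), Zfp395 (0.0795) and Kctd15 (0.0973), and for Mmp9 Rfk (0.0811), Rbks (0.107) and Tmem181a (0.171). With 6 libraries and so many candidates, close profiles are found for any gene. Mmp14 was nearest to Rab21 (0.124), Hs2st1 (0.132) and Smarcc1 (0.135), and Mmp19 to Kctd12 (0.0869), Dnajc18 (0.115) and Optn (0.120). Timp1 was nearest to Fam118b (0.134), Eml1 (0.149) and Letm2 (0.151), Timp2 to Fbxo2 (0.176), Fam160b2 (0.187) and Kat5 (0.199), and Timp3 to Pla2g4c (0.127), Fhl2 (0.140) and Mmp12 (0.153).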

How the data were processed

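Gene counts were used as the authors deposited them: unnormalized whole-number counts by Ensembl ID for the 6 libraries, whose totals differ. Per the submitters' processing notes, HISAT2 2.0 and the build mm10 were used. The counting program, annotation release and strand setting are not given in the sources used here. Library totals were 14477277 to 20972494, so 1 count was worth 0.0476 to 0.0701 CPM. Symbols, coordinates and merged exon lengths came from GENCODE M21 on GRCm38 (55227 of 55487 IDs matched; the rest held 0.00197% of counts), and 0 columns of per-sample values were unused.

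Genes were kept with filterByExpr (count minimum 10, total minimum 15), scaled with TMM factors and tested with edgeR 4.0.16 in R 4.3.3 (quasi-likelihood, robust, Benjamini-Hochberg over 15666 genes). Standard errors are the absolute log2 fold change over the square root of F, and 95% intervals use the t distribution. The fit was tested on simulated data with known answers. DESeq2 1.42.0 and limma 3.58.1 (voom) were among the alternatives. The list level is the mean log2 CPM (prior count 2) less that of the controls. Members and lists were chosen with earlier results of these data known. Genes were named by rule: all members, the 3 genes of smallest p per pathway list with Timp4 and Reck, at most 2 per marker list, and the 3 nearest profiles per member. Ly6g and Mpo, Mmp12 in the cluster, Krt14, Il6, Tnf and the AP-1 and Ets genes were singled out after their values were seen.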

Additional observations from a re-analysis of the deposited data

How the results depend on the processing

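The number of genes called over the whole table was 6 and became 1187 with no filter on low counts, 541 with DESeq2, 0 with limma-voom, 14 with the replicate block, 0 with the skeletal muscle level as a covariate, and 0 to 217 with 1 library left out. Members called were 0 and became 2 without the filter (Mmp2 and Mmp8), where 1187 of 28841 genes tested were called. With 1 library left out they ran from 0 to 1. The 1 was Mmp13 without inhibition 3, where 217 of 15890 genes tested were called. The members' median was -0.10 with the muscle covariate, where Mmp14 stood at 0.14, Timp1 at -0.15, Mmp8 at 0.44, Timp3 at -0.16, Mmp19 at -0.48 and Mmp2 at -0.057. With 1 library left out, Mmp14 ran from -0.077 to 0.016 and Timp1 from -0.048 to 0.26. The ratio of protease to inhibitor RNA was 1.08 in controls and 0.838 under inhibition with the longest transcript's length, which also put Mmp14 (85.6 and 84.7 RPKM) above Timp2 (68.5 and 74.2). Causes were not tested. Mmp3, Mmp9, Mmp13 and Timp2 kept their direction under all 15 alternatives each. Pairing by replicate number was not established. Correlations of deviations across genes were -0.18, 0.33 and 0.09 for the same numbers, and not every sample correlated best with its own number. The block called 0 members. With it Mmp3 stood at -1.20 (standard error 0.17, unadjusted p = 0.000242, adjusted p = 0.0732) and Mmp13 at -1.09 (unadjusted p = 0.00414, adjusted p = 0.158). Mmp8 stood at -1.59 there (adjusted p = 0.448). In limma-voom Mmp3 and Mmp13 had unadjusted p = 0.0130 and 0.0122 (adjusted p = 0.226 and 0.225). Mmp8 did not pass the filter of 1 CPM in every library of a group. Depth limited Mmp8 most, at 2 to 66 reads per library.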
